A study of Oncorhynchus mykiss with 30 samples.

Results

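Gonads of all-male rainbow trout fry exposed to 0.01 μg/L of 17α-ethynylestradiol (EE2) were compared with gonads of fry kept in water with the solvent alone. EE2 is a synthetic oestrogen of contraceptive pills. The sample labels call the tissue of both groups testis. The 12 arrays of this contrast, 6 at 0.01 μgEE2/L and 6 controls, were chosen by their concentration label from the 30 arrays of the study, which also covered 0.1, 1 and 10 μgEE2/L. In both groups the treatment lasted 76 days, between 60 and 136 days post-fertilisation (dpf), in 3 tanks per group. The gonads of 10 fish were pooled, each tank gave 2 pools and each array received 1 pool, so that an array shows a mixture of fish and not an individual. The 0.01 μg/L is the nominal concentration, and it lay under the detection limit of the water assay, 0.02 μg/L. All arrays measured 60195 probes, and all are described.

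In fish, gonads of genetic males can form ovarian tissue when oestrogen is present during differentiation. Ovarian differentiation and its maintenance rest on transcription factors such as FOXL2, which activates aromatase, the enzyme that makes oestrogen, while testis differentiation relies on Sertoli cell factors such as dmrt1 and amh. In a pooled gonad, fewer cells of a type and less RNA per cell cannot be told apart. The defining Sertoli, Leydig, oocyte and oestrogen response genes are not among the names carried by the probes, so the tissue label was not checked against them here.

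The signal was well above background for between 77.9 and 88.1% of the probes on the arrays at 0.01 μgEE2/L and for between 75.4 and 86.7% on the control arrays, and 0 probes were saturated. The arrays lay on 4 slides. Slide 1 held replicate 4 at 0.01 μgEE2/L with control replicates 1, 3 and 4, slide 2 held replicates 1, 2 and 5 at 0.01 μgEE2/L with control replicate 2, slide 3 held replicate 6 of either group, and slide 4 held replicate 3 at 0.01 μgEE2/L with control replicate 5. Control replicate 4 had a dim region in its middle, where 19.03% of the 15321 probes located there were over 4-fold below the median of the controls, against 0.254% elsewhere on that array. Only low values were counted, and for some probes of this region named below replicate 4 was the highest control. Control replicates 2 and 6 stood apart from the other controls, as described below.

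At 0.01 μgEE2/L, 4764 probes (7.91% of the array) differed from the control in limma (adjusted p below 0.05). Of these, 1701 (2.83% of the array) were over-expressed and 3063 (5.09%) were under-expressed, so that 64.3% of the calls were under-expressed. The unadjusted p was below 0.05 for 13074 probes. When the 12 arrays were normalised and fitted without the other concentrations, 2782 probes were called and 19.7% of these were over-expressed, against 35.7% in the fit to 30 arrays. The median log2 fold change over all probes was -0.02, and 95% of the probes lay between -1.03 and 1.14 on this scale. All fold changes are 0.01 μgEE2/L over control.

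The 2 directions differed in shape. The fold change exceeded 2 for 1847 called probes (3.07% of the array), 874 over-expressed and 973 under-expressed. Beyond 4-fold there were 316 over-expressed and 51 under-expressed probes, and beyond 8-fold 139 and 7. With regard to the pools, the order was the opposite. All 6 arrays at 0.01 μgEE2/L were above every control for 581 probes (0.965% of the array) and below every control for 2056 probes (3.42%). Among the called probes, 22.5% of the over-expressed but 53.7% of the under-expressed probes had such a full separation of the pools. The under-expressed probes thus included more that separated all 12 pools, and the over-expressed probes more with large mean differences.

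**Figure D1:**
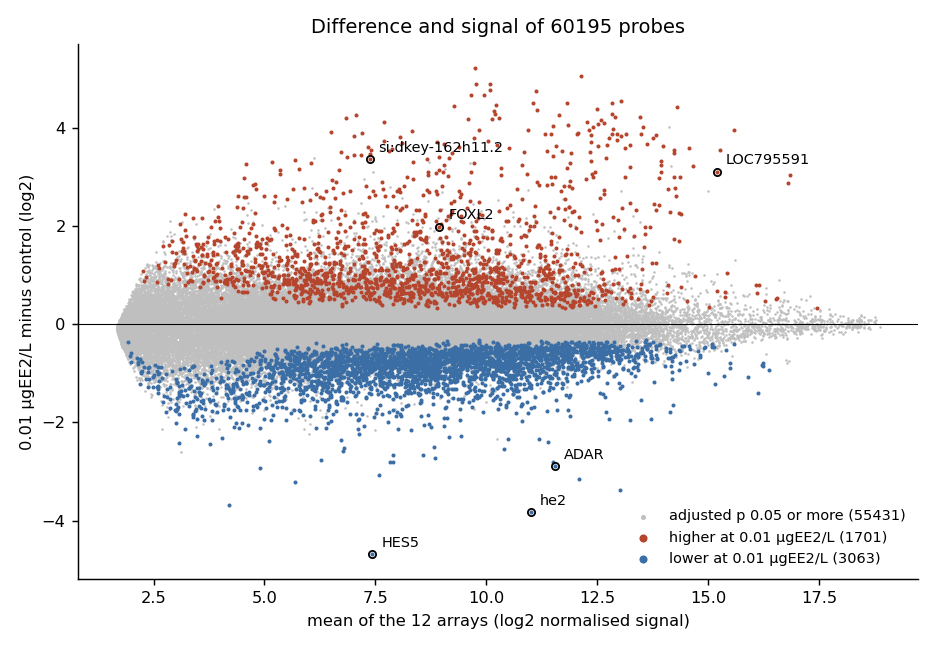
The vertical axis gives the difference between 0.01 μgEE2/L and control (log2) and the horizontal axis the mean log2 signal over the 12 arrays, with 1 point per probe, red for the 1701 over-expressed, blue for the 3063 under-expressed and grey for all other probes. Differences beyond 4-fold were mostly over-expressed (316 against 51 probes), and the probe of HES5 was the lowest of the named ones.

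The large increases were carried by some of the pools. For the 139 probes over-expressed more than 8-fold, the median log2 signal over the probes was 13.5, 11.3, 12.3, 13.2, 13.9 and 13.8 on replicates 1 to 6 at 0.01 μgEE2/L, and 5.01, 13.1, 8.14, 7.97, 6.73 and 13.7 on control replicates 1 to 6. Control replicates 2 and 6 thus lay within the range of the exposed pools, while the other 4 controls lay far below it. Both were above all other controls for 133 of the 139 probes, and replicate 2 was the lowest exposed array for 130 of them. Only 4 of the 139 probes had all 6 exposed arrays above every control. The median SD over these probes was 0.96 at 0.01 μgEE2/L and 3.51 in the control on the log2 scale, against 0.34 and 0.45 over all probes. An example, chosen with its values known, is TC125917, the called probe with the largest fold change. Its log2 signal was between 9.77 and 14.33 at 0.01 μgEE2/L, against 13.71 and 13.43 on control replicates 2 and 6 and between 1.71 and 5.33 on the other controls. Its log2 fold change was 5.21 (SE 1.36, adjusted p = 0.016 in limma). This SE rests on a spread shared by all concentrations of the fit. The SD of TC125917 was 5.16 in the control and 1.55 at 0.01 μgEE2/L, against 1.11, 0.60 and 0.64 at 0.1, 1 and 10 μgEE2/L. Within slides 2 and 3, which hold control replicates 2 and 6, the difference was -1.50 and -0.60. On slides 1 and 4 it was 8.95 and 8.15. With background correction by normexp the log2 fold change of TC125917 was 3.51 (adjusted p = 0.034).

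The 177 probes over-expressed between 4 and 8-fold showed the same overlap. Control replicates 2 and 6 had medians of 9.72 and 10.20, within the exposed range of 9.30 to 10.56, and the other controls 6.63 to 6.84. Both were above all other controls for 132 of the 177 probes, and 31 separated all pools. In the 558 probes over-expressed between 2 and 4-fold, both were still the highest controls, with medians of 7.21 and 7.30. There they lay below every array at 0.01 μgEE2/L, the lowest of which had a median of 7.80. The remaining controls had medians between 6.33 and 6.68. In the under-expressed probes the pools were closer together. The 922 probes under-expressed between 2 and 4-fold had medians between 6.63 and 6.99 at 0.01 μgEE2/L, against 7.56 on control replicate 6, 7.76 on control replicate 2 and 8.20 to 8.37 on the other controls. For the 51 probes under-expressed more than 4-fold, the exposed arrays had medians between 5.36 and 6.34 and the controls between 7.88 and 9.03, and 48 of the 51 separated all pools. Control replicate 6 was the lowest control in this class as well.

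**Figure D2:**
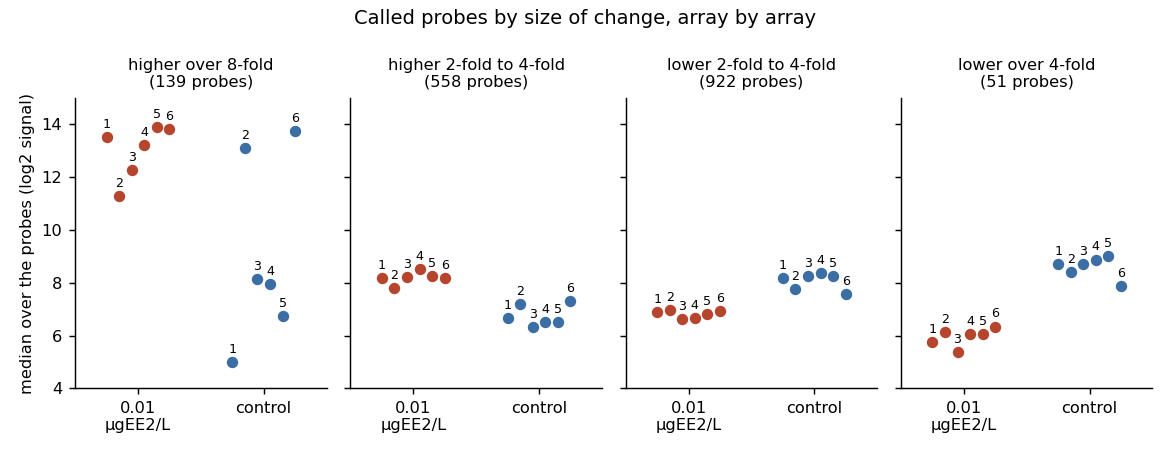
Each point is 1 array, numbered by replicate, and its height is the median log2 signal over the called probes of a size class (red at 0.01 μgEE2/L, blue in the control). Control replicates 2 and 6 overlap the exposed arrays in the class over-expressed more than 8-fold (13.1 and 13.7) and are below them in the class over-expressed 2 to 4-fold, and the groups do not overlap in the under-expressed classes shown. The class over-expressed 4 to 8-fold, where both controls also overlap the exposed arrays, is not drawn.

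To give each pool a value that did not depend on its own signal in the choice of probes, the contrast was refitted without that array, and the array was placed on a scale that is 0 at the mean of the controls and 1 at the mean of the exposed arrays left in the fit, over the probes then called. At 0.01 μgEE2/L, 5 pools lay between 0.93 and 1.09, and replicate 2 lay at 0.53. Of the controls, replicates 1, 3, 4 and 5 lay between -0.19 and 0.01, while replicate 2 lay at 0.74 and replicate 6 at 0.91. Over the over-expressed probes alone, control replicates 2 and 6 lay at 0.93 and 1.09, and over the under-expressed probes at 0.31 and 0.53. Control replicate 6 was on the side of its own group for 33.1% of the probes, control replicate 2 for 55.1% and replicate 2 at 0.01 μgEE2/L for 58.0%, and the other 9 arrays for between 74.9 and 96.5%. Both pools that carry the solvent label thus resembled the exposed pools over the over-expressed probes. By the labels of the scanner files they come from tanks 1 and 3, whose other control pools, replicates 1 and 5, lay at -0.18 and -0.17. The deposited table exchanges control replicates 2 and 4, and by its labels the array called replicate 2 here comes from tank 2.

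**Figure D3:**
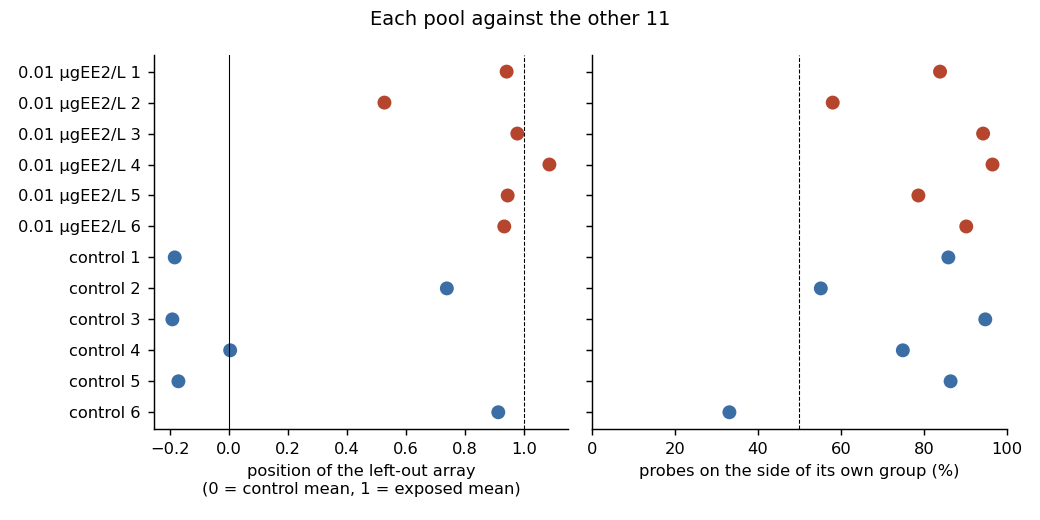
Each row is 1 array left out of the fit, red at 0.01 μgEE2/L and blue in the control. The left panel gives its position between the mean of the controls (0) and of the exposed arrays (1), and the right panel the percentage of called probes on the side of its own group. Control replicates 2 (0.74) and 6 (0.91) and replicate 2 at 0.01 μgEE2/L (0.53) stood apart from their groups.

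Leaving out these arrays changed the number of calls. Without control replicate 6 it was 7374, of which 3289 were over-expressed, and without control replicate 2 it was 5609. With both left out, 10404 probes were called, 4878 over-expressed and 5526 under-expressed. Since both were singled out for their likeness to the exposed pools, a larger number is given by the choice itself. All controls are kept in the values below. In the other direction, 2923 probes (891 over-expressed) were called without control replicate 3 and 3066 (1011 over-expressed) without replicate 4 at 0.01 μgEE2/L. Without control replicate 1, 1083 were over-expressed. All 12 fits that leave out 1 array called 715 of the 1701 over-expressed and 1732 of the 3063 under-expressed probes.

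The slides and tanks were examined in the same way. Within slides 1 and 4, the median difference over the over-expressed probes was 1.32 and 1.28 on the log2 scale, and within slides 2 and 3 it was 0.55 and 0.34. Over the under-expressed probes it was -1.11 and -0.99 within slides 1 and 4, against -0.61 and -0.38 within slides 2 and 3. The direction was the same on all 4 slides for 67.7% of the over-expressed and 92.9% of the under-expressed probes, and for 28.3% of all probes. Slides 2 and 3 each hold only 1 control, so that among the controls the slide and the pool cannot be told apart. With the slide as a block, limma called 3931 probes, 1177 over-expressed and 2754 under-expressed. The p-values treat the pools as independent, whereas each tank supplied 2 of them. On the means of the pools of each tank, 2579 probes were called, 1067 over-expressed and 1512 under-expressed, and these included 51.1% of the probes called on pools. The fit on means also has fewer units. With the tank as a random block, limma called 4196 probes, 1462 over-expressed and 2734 under-expressed. The correlation within tanks in that fit was 0.045.

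Calls increased with the signal. Among 10 classes of equal size, 0.183% of the probes in the dimmest class were over-expressed and 0.681% under-expressed. In class 9 these shares were 4.25 and 8.67%, and in class 10, the brightest, 4.20 and 7.23%. The median SE of the difference was 0.34 in class 1 and 0.19 in class 10. Under-expressed probes outnumbered over-expressed probes in all 10 classes. Of the called probes, 75.7% of the over-expressed and 88.4% of the under-expressed were well above background on all 12 arrays, against 67.6% of all probes. For 60 over-expressed probes no control array was well above background, and for 74 under-expressed probes no exposed array was. The size of the fold change of dim probes depended on the background correction. An offset added to every signal draws the fold change of a dim probe towards 0 by arithmetic, so that the direction of such a move is largely set. Under normexp, a background correction that adds an offset of 50 to every signal, the fold change of 31 of the 76 probes described by name or identifier moved by over 1.5 times, nearer to 0 in all 31, of which 9 were well above background on all 12 arrays. Of the 65 called probes among the 76, 59 were called with normexp.

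**Figure D4:**
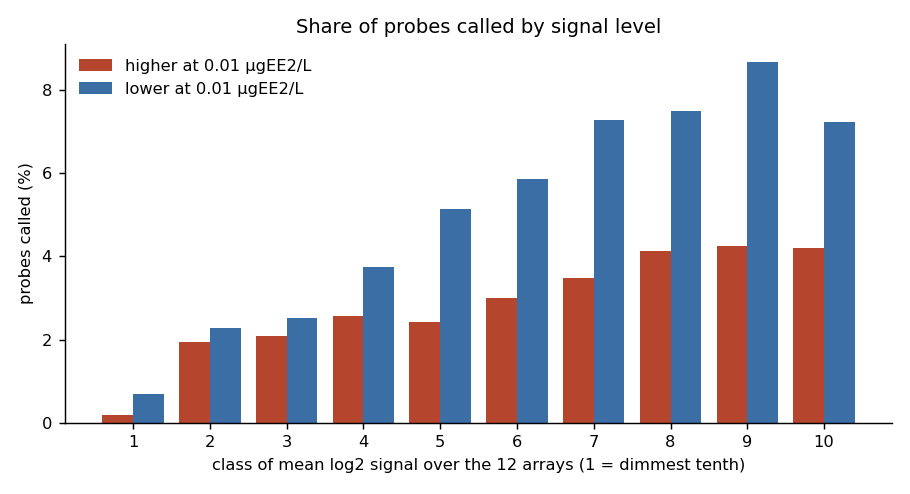
Bars give the percentage of probes over-expressed (red) and under-expressed (blue) at 0.01 μgEE2/L in 10 classes of equal size of the mean log2 signal, from the dimmest (1) to the brightest (10). The shares were 0.183 and 0.681% in class 1 and 4.20 and 7.23% in class 10.

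FOXL2 (TC126540) was over-expressed at 0.01 μgEE2/L. The probes of FOXL2 and of the other genes below from both marker tables of the study were identified by a match of printed values. Their direction here is thus a description and not independent evidence. The log2 signal of FOXL2 was lowest at 9.49, 10.00 at the median and highest at 10.33 in the exposed pools, against 6.91, 7.75 and 9.03 in the control pools. All exposed pools were above every control, and the highest controls were again replicates 2 (9.03) and 6 (8.97). The log2 fold change was 1.98 (SE 0.26, adjusted p = 2e-05 in limma), and it was 2.83 within slide 1 and 2.59 within slide 4, against 0.85 within slide 2 and 0.52 within slide 3.

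The same 2 controls were the highest for nog3, which encodes noggin, a secreted antagonist of bone morphogenetic proteins. The signal of its probe (CUST_11142_PI425536763) lay between 9.16 and 9.96 at 0.01 μgEE2/L (median 9.79), against 8.22 and 8.77 on control replicates 2 and 6 and 6.80 to 7.38 on the other controls. The groups did not overlap, and the log2 fold change was 2.21 (SE 0.26, adjusted p = 4.7e-06). nog3 belongs to the supplementary list described below, which the study chose on these same arrays. Its direction and size are thus not independent evidence either.

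spon2 (TC109462) and cdkn1b (TC128043) were dimmer. spon2 encodes spondin, a secreted protein of the extracellular matrix, and cdkn1b an inhibitor of cyclin-dependent kinases that holds back cell division. The log2 signal of spon2 was between 4.68 and 5.75 in the exposed pools (median 5.40), against 1.64 to 4.52 in the control pools (median 3.67), of which 3 of 6 were well above background. The probe of spon2 lies in the dim region of control replicate 4, and without that array its log2 fold change was 1.93. cdkn1b had 4.54 to 5.88 (median 5.04) at 0.01 μgEE2/L, against 2.46 to 4.53 (median 3.96) in the control. Its lowest control value comes from the dim region of control replicate 4, and without this array the log2 fold change was 0.95 (adjusted p = 0.046) in place of 1.24 (SE 0.32, adjusted p = 0.016). With normexp, the log2 fold change was 0.57 for spon2, against 1.85 without it, and 0.36 for cdkn1b.

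Another group of over-expressed probes, taken by the size of their change among those that separated all pools and by the smallest p, had its highest signal among the controls on other arrays than replicates 2 and 6. Of the 139 probes over-expressed more than 8-fold, only the 4 that separated all pools could enter this choice, so that the order of the controls is largely set by it. Its largest fold change was that of si:dkey-162h11.2 (TC120776), named after a zebrafish gene. The log2 signal was between 8.34 and 10.01 (median 8.92) at 0.01 μgEE2/L, against 4.20 to 6.80 (median 5.77) in the control, and the log2 fold change was 3.37 (SE 0.34, adjusted p = 8.2e-07). With normexp the log2 fold change was 2.44. Within the 4 slides the difference was 3.14, 3.09, 2.88 and 4.83. Control replicates 2 (5.84) and 6 (5.70) were in the middle of the controls, and control replicate 4 was the highest (6.80). The probe lies in the dim region of control replicate 4, and without that array the log2 fold change was 3.59.

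LOC795591 (TC125012), similar to a tubulin alpha of zebrafish, was among the brightest probes. It had 16.32 to 17.20 (median 16.70) at 0.01 μgEE2/L and 12.05 to 15.57 (median 13.80) in the control, and the log2 fold change was 3.11 (SE 0.36, adjusted p = 4.3e-06). The probe lies in the dim region of control replicate 4, and without that array the log2 fold change was 2.81. Here control replicate 1 was the highest control. It was also the highest control for THEG, dnaaf2, CU856539.4, LOC100136222, TC109662, TC109048 and CUST_19729_PI425536763.

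THEG (TC95045) is known in mouse as a gene of haploid male germ cells. Its signal was 9.06 to 10.93 (median 9.90) in exposed pools and 4.63 to 8.80 (median 6.82) in control pools. The log2 fold change of THEG was 3.30 (SE 0.62, adjusted p = 0.0013) and 2.88 without control replicate 4, whose dim region holds the probe.

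dnaaf2 (CUST_19687_PI425536763), an assembly factor of the dynein arms that move cilia and flagella, had 5.03 to 6.76 (median 5.85) at 0.01 μgEE2/L, against 2.60 to 4.46 (median 3.19) in the control. Only 1 of 6 controls was well above background. The log2 fold change of dnaaf2 was 2.58 (SE 0.28, adjusted p = 1.8e-06) and only 0.66 with normexp (adjusted p = 0.0040), so that its size was not settled.

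thrap3 (CUST_12278_PI425536763), a nuclear protein of RNA processing and transcription, had 6.85 to 8.21 (median 7.96) in exposed pools, against 3.89 to 5.99 (median 5.05) in control pools, and its log2 fold change was 2.72 (SE 0.28, adjusted p = 1.2e-06) and 1.31 with normexp. LOC100136222 (CUST_123_PI425536763), which encodes the CD8 beta chain, a co-receptor of T cells, had a median of 6.16 and a lowest value of 5.10 at 0.01 μgEE2/L, against a median of 2.86 and a highest value of 4.55 in the control, where 1 of 6 arrays was well above background. The log2 fold change of LOC100136222 was 3.25 (SE 0.41, adjusted p = 1.9e-05) and 0.91 with normexp (adjusted p = 0.026), so that its size was not settled either.

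The other over-expressed probes of this group were CU856539.4 (TC122002), an uncharacterised zebrafish protein, TC109662, TC109048 and CUST_19729_PI425536763, with log2 fold changes between 2.59 and 2.90. With normexp these were 2.09 for CU856539.4, 1.94 for TC109662, 0.76 for TC109048 and 0.93 for CUST_19729_PI425536763, and for both of the last probes 3 of 6 controls were well above background. CU856539.4 and TC109048 lie in the dim region of control replicate 4, and without that array their log2 fold changes were 3.14 and 2.39. All 10 probes chosen by size kept an adjusted p below 0.05 on the means of tanks, with the slide as a block and in each of the 12 fits without 1 array. Their choice by separation and size in the same arrays goes far to fix this, and over all calls the fits without 1 array kept 715 of 1701. A further probe with a printed match and no gene name, TC95845, was higher by 3.36 (log2; SE 0.50, adjusted p = 0.00011; 2.57 with normexp), with 4 of 6 exposed arrays above every control.

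HES5 (TC103433) had the strongest under-expression of all called probes that separated the pools. HES5 is a transcriptional repressor and a target of Notch signalling. Its log2 signal was between 4.32 and 5.53 (median 5.23) at 0.01 μgEE2/L, against 8.68 to 10.74 (median 10.00) in the control. The log2 fold change was -4.69 (SE 0.37, adjusted p = 1.1e-08 in limma), a 25.8-fold difference, and 5 of 6 exposed arrays were well above background. With normexp the log2 fold change of HES5 was -3.20 (adjusted p = 7.9e-09). The lowest control was replicate 6, and the difference within slide 3, which holds it, was -3.28, against -4.46, -5.24 and -4.68 within slides 1, 2 and 4.

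he2 (TC113380), similar to a hatching enzyme of zebrafish, had 8.39 to 9.55 (median 9.33) at 0.01 μgEE2/L and 12.12 to 13.68 (median 12.86) in the control. Its log2 fold change was -3.83 (SE 0.46, adjusted p = 7.9e-06). ADAR (CUST_26298_PI425536763), an adenosine deaminase that edits double-stranded RNA, had the smallest adjusted p of the contrast (4.4e-10). It had 9.64 to 10.64 (median 10.15) in exposed pools, against 12.47 to 13.56 (median 12.95) in control pools, with a log2 fold change of -2.89 (SE 0.19). For both probes replicate 6 was again the lowest control, and the groups did not overlap.

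cyp2m1 (TC96342), a cytochrome P450 of trout, had 8.91 to 9.43 (median 9.07) at 0.01 μgEE2/L and 11.26 to 11.99 (median 11.71) in the control. The spread of the pools was small in both groups (SD 0.22 and 0.29), and the log2 fold change was -2.55 (SE 0.23, adjusted p = 9.6e-08).

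Of the under-expressed probes without a gene name, TC97453 had a median of 2.09 and a highest value of 3.69 at 0.01 μgEE2/L, where 1 of 6 arrays was well above background, against a median of 6.20 and a lowest value of 4.85 in the control. Its log2 fold change was -3.68, and -0.98 with normexp. CUST_2321_PI425536763 was bright in both groups, with 10.63 to 11.81 (median 11.32) in exposed pools and 14.12 to 15.53 (median 14.44) in control pools. TC107019, CUST_193_PI425708691, TC107189 and TC112600 had log2 fold changes between -3.22 and -2.93, and with normexp that of TC107019 was -1.43, that of TC107189 -2.27 and that of TC112600 -1.08. CUST_28_PI425708691, taken for its small p (adjusted p = 1.4e-08 in limma), had 12.45 to 13.11 (median 12.72) at 0.01 μgEE2/L and 14.26 to 15.02 (median 14.78) in the control. The calls of the 10 under-expressed probes chosen by size were kept on tank means, with the slide as a block and without any single array, against 1732 of all 3063 under-expressed probes in the fits without 1 array, and the choice of these probes again goes far to fix this. Scheffe's criterion kept 9 of these 10, with CUST_193_PI425708691 not called (adjusted p = 0.083), and all 10 over-expressed ones.

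The 4 genes of energy metabolism were between 2.06 and 2.31-fold lower at 0.01 μgEE2/L. SLC25A4 and SLC25A6 encode the carriers that exchange ADP and ATP across the inner mitochondrial membrane, TPI1 a glycolytic isomerase and Aldh7a1 an aldehyde dehydrogenase of lysine breakdown. SLC25A4 (CUST_21720_PI425536763) had 6.07 to 6.61 (median 6.24) at 0.01 μgEE2/L, against 7.13 to 7.83 (median 7.59) in the control, and its log2 fold change was -1.21 (SE 0.26, adjusted p = 0.0038). SLC25A6 (CUST_8591_PI425536763) had 8.50 to 8.88 in exposed and 9.26 to 10.07 in control pools (log2 fold change -1.05, SE 0.31, adjusted p = 0.034). TPI1 (CUST_21719_PI425536763) had 7.41 to 8.42 in exposed pools, against 8.34 to 9.40 in control pools, with 5 of 6 exposed arrays below every control (log2 fold change -1.18, SE 0.32, adjusted p = 0.019). Aldh7a1 (CUST_6043_PI425536763) had 5.98 to 6.95 at 0.01 μgEE2/L and 7.16 to 8.14 in the control (log2 fold change -1.06, SE 0.30, adjusted p = 0.026). On tank means only SLC25A4 was called (adjusted p = 0.04), with 0.079 for SLC25A6 and TPI1 and 0.14 for Aldh7a1. The call of SLC25A6 was lost in 8 and that of Aldh7a1 in 5 of the 12 fits without 1 array.

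**Figure D5:**
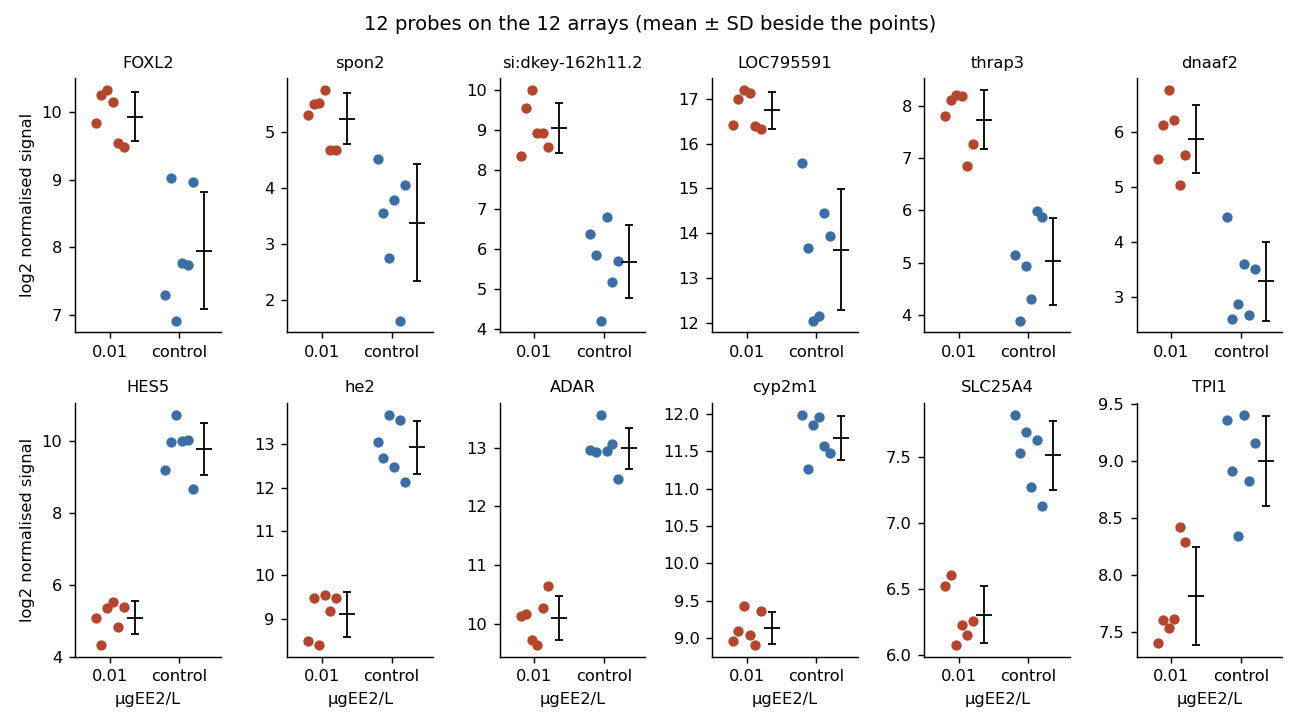
Log2 normalised signal of 12 probes on each array, with 0.01 μgEE2/L (red, 6 pools) left of the control (blue, 6 pools) and the mean ± SD beside the points. All 6 exposed pools are beyond every control for 11 of the probes and 5 of 6 for TPI1, and the scale of the axis differs between panels.

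A further list of 27 probes is named in a supplementary list of the study, which chose them on these same arrays, so that their direction is not independent evidence. Of the 27, 25 were over-expressed and 0 under-expressed (percentages over all probes 2.83 and 5.09), and the median log2 fold change was 1.16, against -0.02 over all probes. The exceptions were pax2-B (1.44, adjusted p = 0.25) and Ern1 (0.97, adjusted p = 0.081). Both fall outside the study's description of the list, and the reason was not tested. All exposed pools were above every control for 14 of the 27, against 0.965% of all probes and 22.5% of the over-expressed calls. The fits without 1 array kept 12 of the calls throughout, and tank means kept 15. With normexp, 19 of the 25 calls were kept, and the fold change of 11 of the 27 probes moved by over 1.5 times, all nearer to 0.

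The list holds receptors, adhesion proteins and enzymes. Both probes of Cldn19, which encodes a claudin of tight junctions, gave nearly the same values. TC109027 had 12.30 to 13.00 (median 12.80) at 0.01 μgEE2/L and 11.28 to 12.05 (median 11.38) in the control, and CUST_6137_PI425536763 had 12.34 to 13.00 (median 12.85) at 0.01 μgEE2/L and 11.35 to 12.08 (median 11.52) in the control. Their log2 fold changes were 1.22 (adjusted p = 0.00075) and 1.17 (adjusted p = 0.001). The probes of FZD10, a frizzled receptor for Wnt proteins, had different levels. TC119501 had 5.07 to 5.93 in exposed pools, all above the highest control pool with 4.77. CUST_24234_PI425536763 had 9.70 to 10.96 in exposed pools and 8.53 to 10.27 in control pools, with 2 of 6 exposed arrays above every control. The log2 fold changes of FZD10 were 1.15 and 1.07, and with normexp that of TC119501 was 0.34 and not called (adjusted p = 0.11). The call of TC119501 was also lost on tank means (adjusted p = 0.16) and in 8 of the 12 fits without 1 array. That of CUST_24234_PI425536763 was kept on tank means (adjusted p = 0.024) and in each of these fits.

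ANGPTL2 (CUST_3048_PI425536763), a secreted angiopoietin-like protein, had a median of 10.22 at 0.01 μgEE2/L and of 8.78 in the control, where the highest value was 9.65, and all exposed pools were above it. Its log2 fold change was 1.55 (SE 0.38, adjusted p = 0.01). The lowest control value of ANGPTL2 (7.08) comes from the dim region of control replicate 4, and without this array the log2 fold change was 1.23 (adjusted p = 0.031). Ptchd2 (TC126511), named after a protein with a patched domain, was higher by 1.26 (log2; SE 0.23, adjusted p = 0.00091) and AOPEP (TC100501), an aminopeptidase, by 1.05 (SE 0.21, adjusted p = 0.0024). SYN2 (TC102373), named after a synapsin, had 0.98 (SE 0.20, adjusted p = 0.0021). The T-box transcription factor tbx2 (TC115507) had 1.10 (SE 0.33, adjusted p = 0.039), but its call was lost on tank means (adjusted p = 0.13) and in 6 of the 12 fits without 1 array. With normexp, Ptchd2 had 0.63, AOPEP 0.39 and tbx2 0.40. These names were given by similarity to proteins of other species, and some, such as metN2, a bacterial transporter subunit, come from species far from fish.

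Probes in the dim region of control replicate 4 make part of this list. Without that array, the log2 fold change was 1.92 in place of 2.24 for MAL (adjusted p = 0.097), 0.90 in place of 1.24 for s26a2 (adjusted p = 0.12), 0.70 in place of 1.19 for SEPT10 (adjusted p = 0.082) and 0.89 in place of 1.35 for gtpb6 (adjusted p = 0.037). The calls of MAL, s26a2 and SEPT10 were thus lost, but not through this array alone, since they were lost in 8, 7 and 8 of the 12 fits without 1 array. For stch (TC101664), 2 of 6 exposed arrays and no control array were well above background, and its log2 fold change was 1.12 (SE 0.30, adjusted p = 0.021). The call of stch was lost with normexp (log2 fold change 0.14, adjusted p = 0.42) and on tank means (adjusted p = 0.051). Each control value was also replaced by the lowest signal well above background on its array, or kept where it was higher. Against this level the mean of stch at 0.01 μgEE2/L was 1.27-fold higher. That value is not a lower limit, since only 2 of 6 exposed arrays were well above background.

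Among 58 probes named after genes in the array design, 7 were under-expressed and 0 over-expressed, against 5.09 and 2.83% of all probes. In both directions together 12.1% of the 58 were called, against 7.91% of all probes, and their median log2 fold change was -0.19. At an unadjusted p below 0.05, 12 were lower and 5 higher, against 13074 of all 60195 probes in both directions together. The latter were not split by direction, so the split of the 58 has no background here. MSX1, a homeobox gene, had 2.56 to 4.39 at 0.01 μgEE2/L, where 2 of 6 arrays were well above background, and 4.47 to 6.28 in the control (log2 fold change -1.56, SE 0.37, adjusted p = 0.008, and -0.43 with normexp). The log2 fold changes of other called probes were -0.70 for Catalase (adjusted p = 0.025), -0.44 for SOD2 (adjusted p = 0.024) and -1.06 for Nrf2 (adjusted p = 0.049). Catalase and SOD2 encode enzymes that remove reactive oxygen, and Nrf2 a transcription factor of the response to oxidation. A probe with the name phosphoenolpyruvate had -0.72 (adjusted p = 0.032). On tank means none of these 4 was called (adjusted p = 0.074 for Catalase, 0.083 for SOD2, 0.069 for Nrf2 and 0.093 for phosphoenolpyruvate). Without 1 array, the call was lost in 10 of the 12 fits for Nrf2, in 4 for Catalase, in 1 for SOD2 and in 5 for phosphoenolpyruvate.

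Wnt4a and Wnt4b, of a family with a role in ovarian differentiation in mammals, were not called. Wnt4a had 4.06 to 4.72 at 0.01 μgEE2/L and 3.49 to 5.74 in the control (adjusted p = 0.85), and Wnt4b had 7.28 to 7.70 at 0.01 μgEE2/L and 4.31 to 7.74 in the control (adjusted p = 0.69), with the lowest control on the dim array. Of the design's muscle genes, which mark cells other than gonad, myf5 (log2 fold change -0.76, adjusted p = 0.0046) and a probe named Slow (-0.69, adjusted p = 0.047) were under-expressed, and the call of Slow was lost in 8 of the 12 fits without 1 array. The 7 others were not called, namely myod1, myogenine, mrf4, Pax7, fast_mlc1, fast_mlc3 and Fast_myosin, with log2 fold changes between -1.09 and -0.09. The control pools of Fast_myosin ranged from 8.65 to 12.98, against 10.00 to 10.63 at 0.01 μgEE2/L. Its lowest control value comes from the dim region of control replicate 4, and the other controls lay at 10.72 or above. Without this array the log2 fold change of Fast_myosin was -1.39 in place of -0.89 and still not called (adjusted p = 0.40). For Pax7, no exposed array and 3 of 6 control arrays were well above background, the highest being control replicate 4, in whose dim region the probe lies. The mean log2 signal over these 9 muscle probes was between 6.95 and 7.29 on the exposed arrays, against 7.24 to 8.19 on the control arrays, and 7 of the 9 were well above background on every array. The part of muscle in the other results was not tested.

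At the higher concentrations, which share the same controls, FOXL2, HES5 and si:dkey-162h11.2 took different courses. The marker list of the study that holds FOXL2 left out genes that it called at 1 or 10 μgEE2/L. HES5 was taken here for its large change at 0.01 μgEE2/L. The courses of both are thus partly set by these choices. The mean log2 signal of FOXL2 was 7.95 ± 0.87 in the control, 9.93 ± 0.37 at 0.01, 9.79 ± 0.22 at 0.1, 8.65 ± 0.19 at 1 and 8.69 ± 0.17 at 10 μgEE2/L (SD, n = 6 each). HES5 had 9.78 ± 0.73 in the control, 5.09 ± 0.45 at 0.01, 7.45 ± 0.62 at 0.1, 7.64 ± 0.53 at 1 and 6.58 ± 0.88 at 10 μgEE2/L, and si:dkey-162h11.2 had 5.69 ± 0.92 in the control, 9.05 ± 0.62 at 0.01, 11.25 ± 0.54 at 0.1, 10.92 ± 0.27 at 1 and 10.36 ± 0.54 at 10 μgEE2/L. The lowest HES5 mean and the highest FOXL2 mean were thus those at 0.01 μgEE2/L, and the differences between the exposed concentrations were not tested here. Against the control, FOXL2 was still called at the higher concentrations. Its log2 fold change was 0.70 at 1 μgEE2/L (adjusted p = 0.029 in limma) and 0.74 at 10 μgEE2/L (adjusted p = 0.020).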

How the data were processed

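RNA of 30 pools of gonads, all given as testis in the sample labels, was labelled with Cy3 and hybridised to single-color Agilent arrays of 60195 probes. The deposited scanner output gives the processed signal as a linear intensity, background-subtracted by Agilent's Feature Extraction software (version 10.7.3.1 per the file headers). The authors also deposited log2 values, made by quantile normalisation over the 30 arrays, which were used as an alternative and to match gene names.

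Signals were averaged over the spots of each probe without control spots and, where others remained, outlier spots. They were put on the log2 scale and quantile normalised over all arrays, a normalisation stated in the methods. The 30 arrays were fitted with a mean for each concentration in limma 3.58.1 and R 4.3.3 (R 2.15.3 in the submitters' processing notes), and the contrast was taken with eBayes and Benjamini-Hochberg adjustment over all probes at a threshold of 0.05. Summaries and figures used Python 3.11.15, numpy 2.4.6, pandas 2.3.3 and matplotlib 3.10.9. Precision is limited by the number of arrays. The p-values measure the spread between pools, taken over all concentrations together and not over the 2 compared groups alone.

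In the deposited table, control replicates 2 and 4 are exchanged relative to the scanner files, whose labels were used. This bears on tanks and replicate numbers only. The scanner files used here hold no mean spot signal, so background correction by normexp (offset 50) was run on the spot median, as an alternative added after the files were seen. Tank means under the table's labels were added in the same way.

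Few probes carry gene names. The probes named in the text are, in each direction, the 10 with the largest fold change among called probes that separated all pools and were well above background on all arrays of the brighter group, and the 5 with the smallest p. To these come the 27 probes of a supplementary list and the genes of both marker tables of the study. Of those, 23 of 24 were identified as the only probe whose deposited values match the printed fold changes and adjusted p. The values of 3 of them enter the counts but are not given by themselves. The array files name 7 probes by RefSeq accession, and of the marker lists only Wnt4a and Wnt4b are among the names they carry. The 58 probes named after genes in the array design, with the muscle genes among them, are outside this rule apart from Wnt4a and Wnt4b and were added after their values were seen. The members and lists were chosen with earlier results of these data known. The fit was tested on simulated normal values of 60195 probes, with the same spread in all groups and few changed probes. Of 50 probes each, 25 raised by 1 and 42 raised by 2 on the log2 scale were called. Of those lowered by 1 and by 2, 21 and 41 of 50 were called, and there were 2 false calls. These rates do not carry over to this contrast, where the controls were split and many more probes were called.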

Additional observations from a re-analysis of the deposited data

Results flagged for a closer look

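Of 164 sets of 6 values examined for a single distant value, 15 were set apart, and chance alone does this for about 1 set in 20. In the control, replicate 4 was the low value of 4 probes located in its dim region. Its log2 signal was 2.46 for cdkn1b (other controls 3.89 to 4.53), 7.63 for gtpb6 (9.97 to 10.89), 3.71 for SEPT10 (6.36 to 6.94) and 4.31 for Wnt4b (7.13 to 7.74). It was the high value for myogenine, also located there, with 8.51 (6.76 to 7.22). Its mean correlation was 0.916 with the arrays at 0.01 μgEE2/L (other controls 0.956 to 0.975) and 0.925 with the other controls (0.952 to 0.966). Control replicate 1 was high for both probes of Cldn19, with 12.05 (others 11.28 to 11.56) for TC109027 and 12.08 (11.35 to 11.59) for CUST_6137_PI425536763, and control replicate 5 was high for MSX1, with 6.28 (4.47 to 5.08).

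At 0.01 μgEE2/L, replicate 2 lay at 0.528 between the control and the exposed mean, where the other exposed pools lay at 0.934 to 1.09. It was also high for mrf4, with 4.57 (others 3.58 to 3.84). Replicate 5 was high for TC97453, with 3.69 (the others at most 2.43), and low for marcs, with 6.14 (6.67 to 6.97). Replicate 6 was low for nog3, with 9.16 (9.71 to 9.96).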

How the results depend on the processing

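Named probes that were called kept their direction under those of the 30 alternatives that gave them a value, and the calls shared with each alternative had the same direction. This was largely set in advance. Some alternatives, such as tank means and Scheffe's criterion, leave the log2 fold change as it is, and most of these probes were chosen on the same arrays. The number of calls (4764 in all, 1701 higher, 3063 lower, 1847 over 2-fold) moved under several alternatives. It was 2782 in all, 548 higher and 1169 over 2-fold with the 12 arrays normalised and fitted alone, and 2862 in all and 568 higher with them fitted alone. Tank means gave 2579 in all, 1067 higher and 1512 lower, and under the table's labels 2590, 1000 and 1590. Array weights gave 12798, 5908, 6890 and 4157 over 2-fold, Scheffe's criterion 638, 152, 486 and 446, and leaving out control replicates 2 and 6 together 10404, 4878, 5526 and 4842. With normexp 818 were over 2-fold. The share of calls that were higher was 35.7%, and it was 19.8% with the 12 arrays fitted alone, 24.4% with normexp, 23.8% by Scheffe's criterion, 46.2% with array weights and 46.9% without both controls. Leaving out 1 array gave 2923 to 7374 calls in all, 891 to 3289 higher, 2032 to 4085 lower and 1259 to 3201 over 2-fold. The cause of these changes was not tested.

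The replicate numbers name tanks and pools of separate fish, and 1 of 6 same-numbered pairs had deviations correlated over 0.1 and was best correlated with its own number, so they do not pair the pools. With the replicate block, 4783 probes were called in all, 1616 higher, 3167 lower and 1814 over 2-fold. Scaling to the 75th percentile gave 4163 calls and the slide as a block 3931.

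Among named probes without a call, Wnt4a had -0.19 without control replicates 2 and 6 together, and myogenine, with a log2 fold change of -0.09, had 0.070 with normexp, 0.033 with the slide as a block, 0.086 with array weights and 0.062 with the brightness as a covariate. Without 1 array, myogenine lay between -0.18 and 0.17, the upper end without control replicate 4. The share of calls was lowest at low signal, with 0.864% of the probes called in the dimmest of 10 classes, and the cause was not tested.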
